A study of Rattus norvegicus with 8 samples.

Results

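The genes described here encode the nuclear part of the mitochondrial respiratory chain and of ATP synthase in rat sensory ganglion cultures. They were chosen by symbol: every rat nuclear gene whose name starts with Ndufa, Ndufb, Ndufc, Ndufs, Ndufv, Sdh, Uqcr, Cox4i, Cox5, Cox6, Cox7, Cox8 or Atp5, with array probes matched by RefSeq accession. Of 234 such names in the gene table, 122 were protein-coding and 111 were pseudogenes. A probe was matched for 85, and 84 of these were tested among 12148 genes in all. The remaining gene, Cox8c, a subunit isoform known from testis, was not well above background on any of the 8 arrays. All 84 tested members were well above background on all 8 arrays, so no member passed the filter through a single group. Another 38 protein-coding names had no matched probe and were not analysed here, among them Ndufa4l2, Cox7a1 and Atp5mc3.

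Dorsal root ganglia, which hold the cell bodies of sensory neurons together with their glia, were dissociated and cultured from Wistar rats of both sexes aged 0 to 5 days. After 2 to 3 days in serum-free medium with fluorodeoxyuridine and uridine, which suppress dividing cells, the cultures received 100 ng/ml of a human protein for 5 days in 1 of 3 forms: the P61S/R100E double mutant (n = 3 arrays), the P61S mutant (n = 3 arrays) or the wild type (n = 2 arrays). Cultures that received no protein were not analysed here. Each one-colour array measured polyadenylated RNA from all cells of a culture, so fewer cells of a type and less RNA per cell cannot be told apart. Whether the replicates are separate cultures is not given in the labels, and p-values therefore measure only the spread between these samples.

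Electrons enter the chain at complex I, which oxidises NADH, and at complex II, the succinate dehydrogenase of the citric acid cycle. Ubiquinone carries them to complex III and cytochrome c to complex IV, cytochrome c oxidase, which reduces oxygen, and the proton gradient built on the way drives ATP synthase, complex V. Neurons depend on this chain for the ATP that keeps ion gradients and axonal transport running. Part of complexes I, III, IV and V is encoded in mitochondrial DNA, and 0 of those transcripts had a tested probe here. By symbol the 84 members comprised 33 complex I subunits and 6 complex I assembly factors, 4 complex II subunits and 2 complex II assembly factors, 8 complex III subunits, 15 complex IV subunits, 15 subunits or the inhibitor of complex V, and the pseudogene Cox6c-ps1. Ndufa4, counted here with complex I by its symbol, is known as a subunit of complex IV.

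Values are log2 signals minus the log2 75th percentile of the array. The 75th percentile of the processed signal ran from 3267 to 5269 over the 8 arrays, and 78.7% to 88.8% of spots were well above background. Wild type replicate 2 stood apart, with correlations of 0.983 to 0.989 across probes with the other arrays. Of the neuron markers 14 of 16 were tested and 14 were above background on all 8 arrays, and the same held for 5 of 6 satellite glia and 10 of 10 Schwann cell markers. Among markers of other cells, 8 of 9 fibroblast, 7 of 9 macrophage, 2 of 7 endothelial and 11 of 13 skeletal and cardiac muscle genes were above background on all arrays. The number of arrays limits the precision.

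The promoters of respiratory chain genes are known for binding sites of nuclear respiratory factor 1 and of the ETS factor GABP. Among the 74 members with a promoter in the RefSeq table (GRCr8 build, 250 bases before the start), the NRF1 core GCGCATGCG on either strand was found in 8, or 10.8%, against 1.87% of 19005 protein-coding promoters. The ETS motif CCGGAAGT was found in 7 members, or 9.46%, against 4.16% of all. For the YY1 motif AAGATGGCG the shares were 1.35% of members and 0.784% of all, for the cyclic AMP element TGACGTCA 4.05% and 2.03%, and for the hypoxia element ACGTG 23.0% and 17.6%. The estrogen-related receptor motif TCAAGGTCA was in 0 members and in 0.305% of all promoters. The median GC content of these promoters was 56.6% in members and 54.8% in all. A match is a description of these letters and not a binding site.

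The NRF1 core is shown in 3 members described below, and the ETS motif in 4, each in 80 bases of the gene's own strand with the motif in capitals. In the longer run of capitals in Atp5mc2 and Atp5po, the match on either strand overlaps the match on the other. The windows are chr7:135678230-135678309 (minus strand) for Atp5mc2, chr11:44657498-44657577 (minus) for Atp5po, chr8:118468143-118468222 (plus) for Uqcrc1, chr9:72073762-72073841 (minus) for Ndufs1, chr18:73567440-73567519 (plus) for Atp5f1a, chr9:46417757-46417836 (plus) for Cox5b and chr1:213833624-213833703 (minus) for Cox8a. In Ndufs1, Atp5f1a and Cox8a the ETS motif lies on the opposite strand.
Atp5mc2: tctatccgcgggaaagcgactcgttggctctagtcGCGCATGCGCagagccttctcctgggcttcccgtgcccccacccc
Atp5po: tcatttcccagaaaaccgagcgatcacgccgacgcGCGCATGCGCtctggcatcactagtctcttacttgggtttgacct
Uqcrc1: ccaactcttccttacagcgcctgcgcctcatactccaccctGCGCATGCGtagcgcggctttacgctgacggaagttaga
Ndufs1: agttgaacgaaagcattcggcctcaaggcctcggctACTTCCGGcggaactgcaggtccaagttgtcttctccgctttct
Atp5f1a: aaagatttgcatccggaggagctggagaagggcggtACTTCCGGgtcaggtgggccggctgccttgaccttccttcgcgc
Cox5b: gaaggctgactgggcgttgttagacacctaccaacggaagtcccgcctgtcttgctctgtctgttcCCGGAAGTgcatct
Cox8a: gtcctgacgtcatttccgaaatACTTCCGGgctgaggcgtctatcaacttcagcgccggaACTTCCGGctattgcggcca

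P61S/R100E was compared with P61S for the effect of adding R100E. No respiratory chain gene passed the test. limma, with Benjamini-Hochberg adjustment over all 23585 tested probes at 0.05, called 0 of 84 members, and 0 of 12148 genes (0%) in all. At an unadjusted p under 0.05 there were 0 members, against 4.68% of all genes. The groups did not overlap in 2 members, both lower with P61S/R100E, against 15.7% of all genes. The median log2 change of the members was -0.02 (31 higher, 53 lower), against -0.01 over all genes.

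The intervals give the sizes of change that the limma model still allows. It takes the arrays as independent, with 1 spread shared by the groups and no effect of slide position. In 81 of 84 members the 95% interval of the change lay within 1.5-fold in either direction, and in 51 it lay within 1.25-fold. Over all 12148 genes, not matched by signal level, the 1.5-fold limit held for 72.7% and the narrower limit for 3937. Among lists of related mitochondrial genes described below, it held for 46 of 66 ribosome genes and 16 of 19 electron carriers and nucleotide exchangers. It held for 15 of 19 citric acid cycle and pyruvate genes and 5 of 8 antioxidant enzymes. For other assembly factors it was 13 of 29, and for biogenesis regulators 7 of 17. The median standard error was 0.102 for the members and 0.122 for all genes.

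The member closest to the threshold was Ndufab1, the mitochondrial acyl carrier protein, which is also a subunit of complex I. Its log2 signals were 2.54, 2.65 and 2.70 with P61S/R100E, against 2.84, 2.76 and 2.83 with P61S. All 3 P61S/R100E arrays lay below the P61S arrays, by a log2 difference of -0.18 (SE 0.0902, 95% bounds -0.40 and 0.03). The adjusted p from limma was 0.999, and a second Ndufab1 probe gave -0.06. Atp5f1c, the gamma subunit in the central stalk of ATP synthase, had 2.38, 2.47 and 2.47 with P61S/R100E, against 2.53, 2.54 and 2.57 with P61S. Those groups were apart as well, with a difference of -0.11 (SE 0.0782) that did not pass. The other 82 members had overlapping groups.

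P61S/R100E was next set against wild type, which tests both substitutions together. limma called 0 of 84 members and 0 of all genes (0%). At an unadjusted p under 0.05 there were 0 members, against 5.19% of all genes. The groups did not overlap in 2 members, 1 higher and 1 lower, against 16.2% of all genes. The median change was 0.00 in the members, with 42 higher and 42 lower, against -0.03 over all genes. In 78 members the 95% interval lay within 1.5-fold and in 37 within 1.25-fold. Over all genes 63.0% met the 1.5-fold limit and 2887 genes the narrower limit.

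P61S was set against the wild type for that substitution alone. limma called 0 of 84 members and 0 of all genes (0%), and at an unadjusted p under 0.05 there were 0 members, against 1.72% of all genes. The groups did not overlap in 8 members, 1 higher and 7 lower, against 17.7% of all genes. The median change was 0.02 in the members (55 higher, 29 lower), against -0.02 over all genes. The 95% interval lay within 1.5-fold in 79 members and within 1.25-fold in 40. Over all genes 67.5% met the 1.5-fold limit and 3305 genes the narrower limit. The 3 comparisons share arrays, so their values are not independent.

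Both wild type arrays lay in column 4 of the slide and no mutant array did, so column and protein cannot be told apart in either comparison with wild type. The P61S/R100E arrays lay in columns 3, 2 and 3 and the P61S arrays in columns 1, 2 and 1, so these groups share column 2 alone. With the slide column as a linear covariate, the median change of the members moved to -0.15 for P61S/R100E against P61S. By this layout that estimate is the difference between the 2 arrays of column 2, replicate 2 of each group. P61S/R100E replicate 2 held the lowest value of 44 members. Against wild type the covariate fit extrapolates to column 4. The median there moved to 0.14 for P61S/R100E against wild type and to 0.29 for P61S against wild type.

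**Figure D1:**
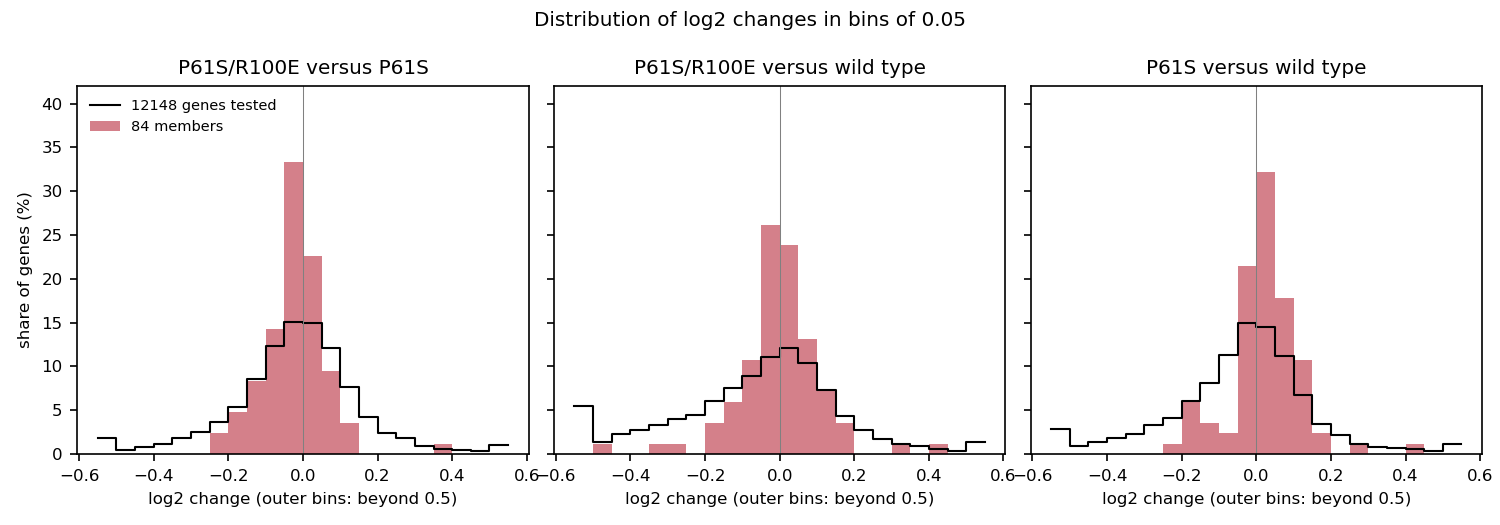
Share of genes (vertical axis, %) by log2 change (horizontal axis, bins of 0.05) for the 84 members (bars) and all 12148 tested genes (line) in the 3 comparisons. The members gather around 0 in each panel, with medians of -0.02, 0.00 and 0.02.

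**Figure D2:**
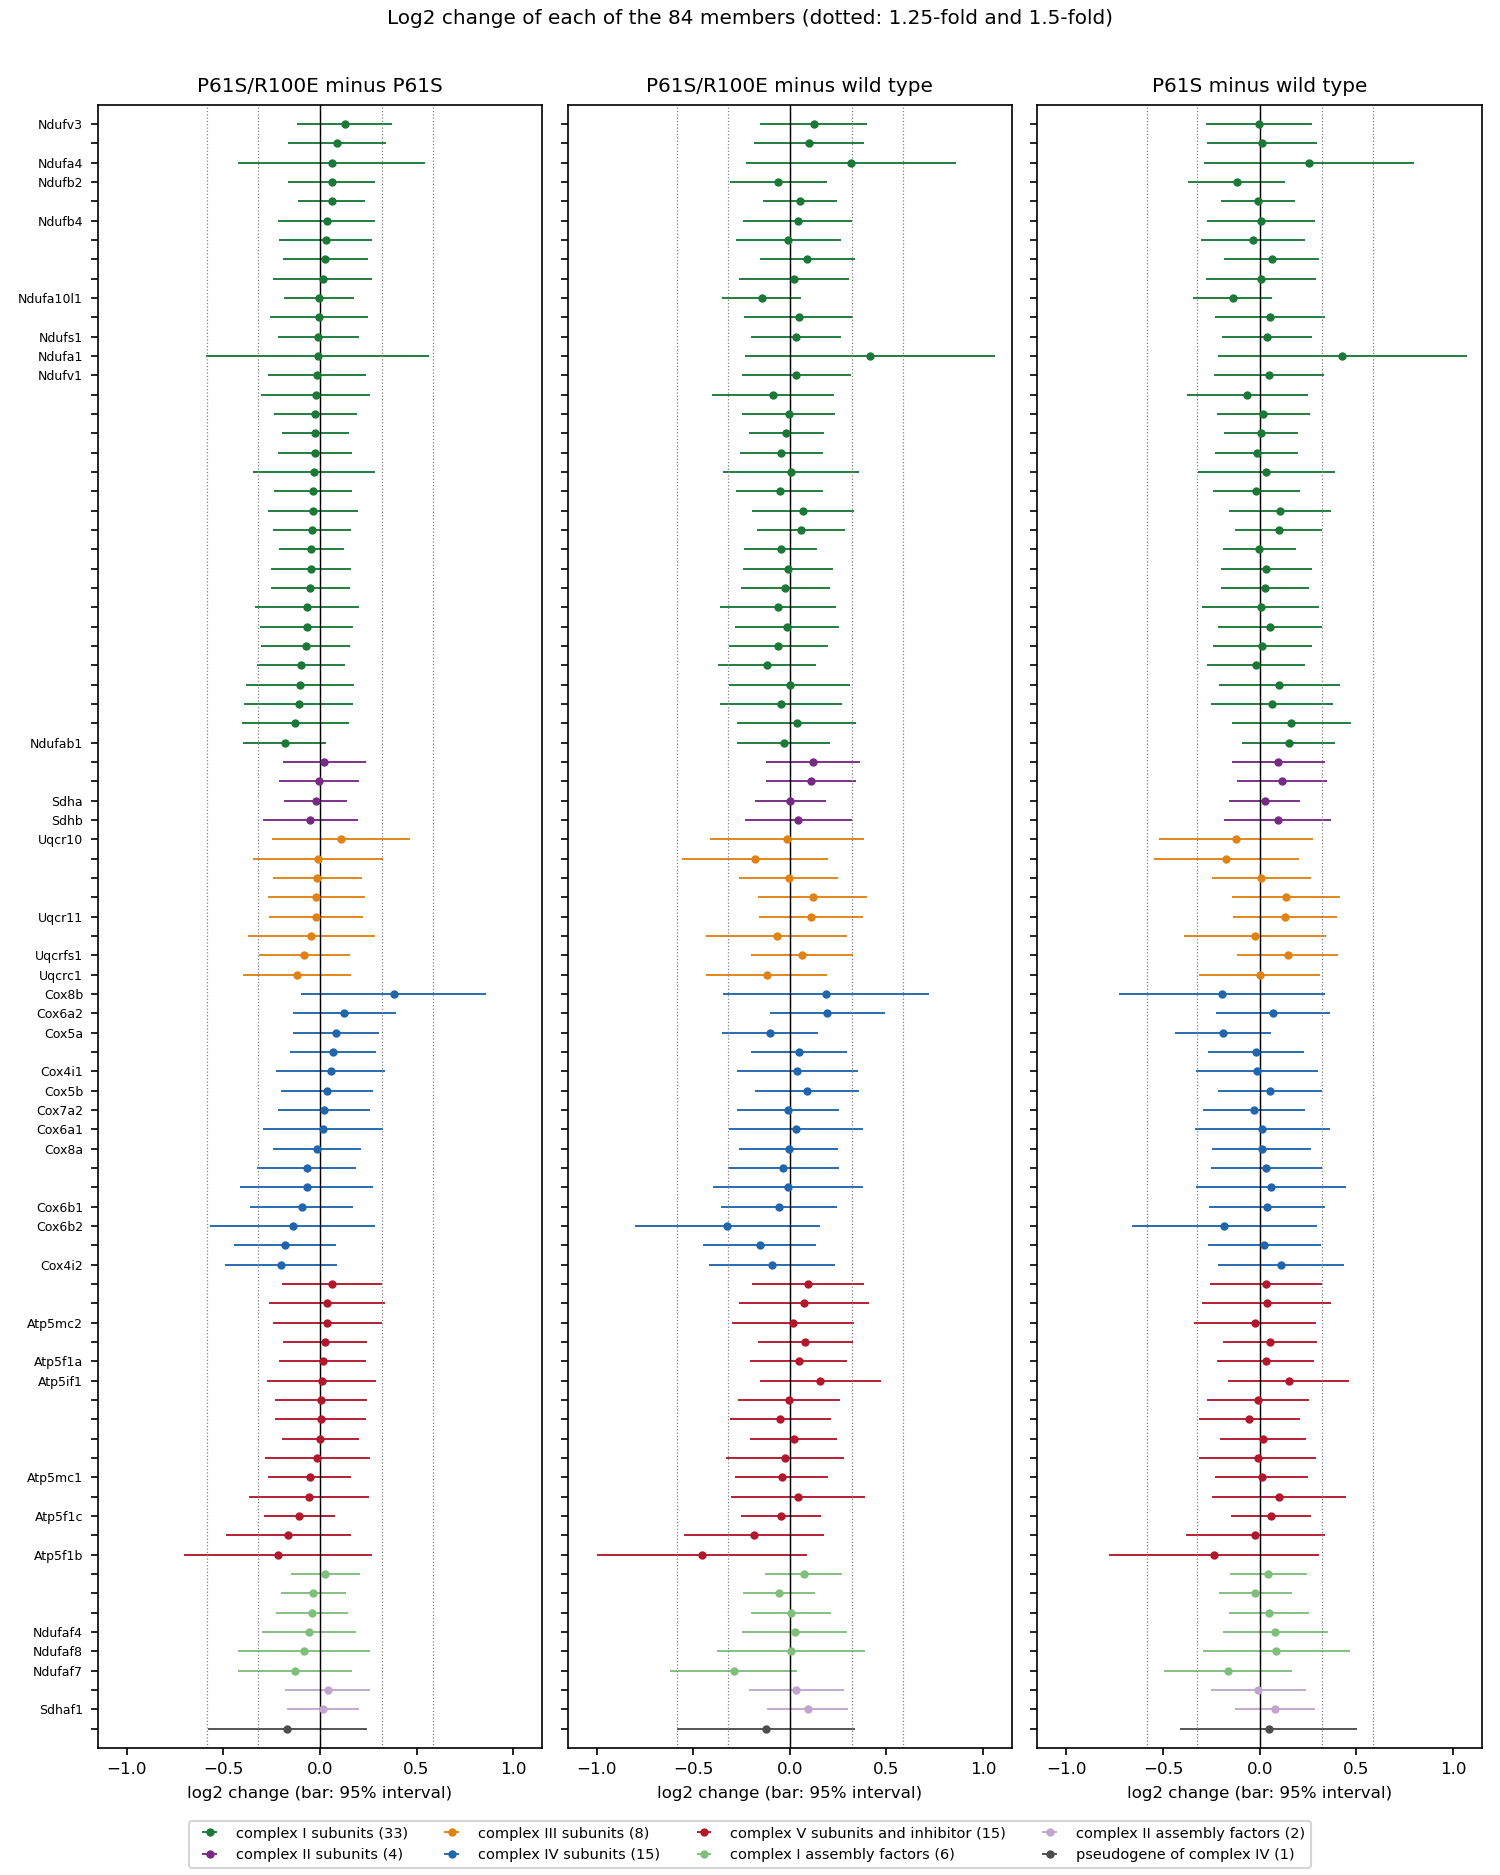
Log2 change (horizontal axis) of each of the 84 members with its 95% interval, by complex and ordered within it by the change of P61S/R100E against P61S, with symbols beside most members named in the text, for P61S/R100E minus P61S, P61S/R100E minus wild type and P61S minus wild type. Every interval includes 0, and the widest ones against wild type belong to Ndufa1, Atp5f1b, Ndufa4 and Cox8b.

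In complex I, the largest complex of the chain, 0 of 33 subunits passed in any comparison. The median change was -0.02 for P61S/R100E against P61S, -0.01 for P61S/R100E against wild type and 0.02 for P61S against wild type. Ndufs1, the largest iron-sulfur subunit, had 1.54, 1.67 and 1.80 with P61S/R100E, 1.68, 1.64 and 1.72 with P61S, and 1.66 and 1.62 with wild type. Ndufv1, which binds the flavin that accepts electrons from NADH, had 3.23, 3.23 and 3.52 with P61S/R100E, 3.37, 3.29 and 3.36 with P61S, and 3.21 and 3.38 with wild type. The 3 groups overlapped in both genes.

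The accessory genes Ndufa1 and Ndufa4 had the widest spread of the complex, and wild type replicate 2 was their lowest array. Ndufa1, a small membrane subunit, had 3.80, 3.53 and 3.77 with P61S/R100E, 3.61, 3.81 and 3.71 with P61S, and 3.79 and 2.78 with wild type. Ndufa4 had 3.86, 3.53 and 3.96 with P61S/R100E, 3.71, 3.69 and 3.77 with P61S, and 3.84 and 3.09 with wild type. In both, wild type replicate 1 lay among the mutant arrays and wild type replicate 2 below all others. The change of Ndufa1 with P61S/R100E against wild type was 0.41 (SE 0.272, adjusted p = 0.746 in limma). Without wild type replicate 1 it was 0.92, with the array that stood apart as the only wild type array. Under other settings 65 of 66 counts of called members were 0. The remaining count came from that fit, in which genes outside the chain were called as well. Ndufa1 was named after its values were seen.

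Small separations between groups were also measured in complex I. Ndufa10l1, named as a copy of Ndufa10, had 2.80, 2.81 and 2.95 with P61S/R100E, 2.84, 2.85 and 2.88 with P61S, and 2.96 and 3.03 with wild type. Both mutant groups lay below wild type, by -0.14 (SE 0.0865) each, without passing. Whether its probe also binds Ndufa10 transcripts was not tested. Ndufb2, an accessory subunit, had 3.56, 3.58 and 3.49 with P61S, against 3.63 and 3.70 with wild type, a difference of -0.12 (SE 0.106), while the P61S/R100E arrays (3.68, 3.44 and 3.69) overlapped with both groups.

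The assembly factors build complexes without being part of them. Over the 6 of complex I, changes ran from -0.13 to 0.03 for P61S/R100E against P61S, from -0.29 to 0.07 for P61S/R100E against wild type and from -0.16 to 0.09 for P61S against wild type, and 0 of 6 passed. Ndufaf7, a methyltransferase, had -1.73, -1.85 and -2.00 with P61S/R100E, -1.70, -1.82 and -1.68 with P61S, and -1.76 and -1.38 with wild type. Its difference of P61S/R100E from wild type was -0.29 (SE 0.139, adjusted p = 0.746 in limma), but a second probe gave 0.01 (SE 0.0801). Ndufaf8, the partner of Ndufaf5, differed by -0.08 (SE 0.144) between P61S/R100E and P61S. Sdhaf1, which helps to insert iron-sulfur clusters into Sdhb, differed from wild type by 0.09 (SE 0.0879) with P61S/R100E and by 0.08 (SE 0.0879) with P61S.

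Complex II, encoded wholly in the nucleus, was represented by its 4 subunits. Sdha, the flavoprotein that oxidises succinate, had 2.18, 2.22 and 2.19 with P61S/R100E, 2.22, 2.19 and 2.25 with P61S, and 2.16 and 2.22 with wild type. Its whole range over 8 arrays was 0.08, the smallest of the 84 members. Sdhb, the iron-sulfur subunit, had 2.31, 2.23 and 2.54 with P61S/R100E, 2.44, 2.37 and 2.43 with P61S, and 2.39 and 2.24 with wild type. All 4 subunits were higher than wild type in both mutant groups by the group mean, with medians of 0.08 for P61S/R100E and 0.10 for P61S, and 0 of 4 passed. Wild type replicate 2 had a median deviation of -0.15 from each subunit's own mean, while wild type replicate 1 had 0.01.

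In complex III, Uqcrc1, a core subunit, had 2.45, 2.29 and 2.56 with P61S/R100E, 2.60, 2.44 and 2.61 with P61S, and 2.41 and 2.70 with wild type. Uqcrfs1, the Rieske iron-sulfur protein, had 2.74, 2.82 and 2.86 with P61S/R100E, 2.88, 2.84 and 2.95 with P61S, and 2.89 and 2.60 with wild type. The groups overlapped in both genes. Uqcr10, a small subunit, had 4.80, 4.82 and 4.84 with P61S, against 4.97 and 4.92 with wild type, a difference of -0.12 (SE 0.168). The 3 P61S arrays lay close together below wild type, while P61S/R100E (5.04, 4.58 and 5.16) surrounded both groups. Uqcr11, read from 3 probes, differed by 0.11, -0.16 and -0.01 between P61S/R100E and wild type, so the sign depended on the probe.

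Complex IV holds several subunits with tissue-specific isoforms, and each isoform is given on its own probe, whose levels cannot be set against each other. Cox4i1, the common isoform of subunit IV, had 4.85, 4.77 and 4.90 with P61S/R100E, 4.71, 4.95 and 4.70 with P61S, and 4.96 and 4.64 with wild type. Cox4i2, the isoform known from lung and from low oxygen, had 0.15, 0.18 and 0.25 with P61S/R100E, 0.24, 0.64 and 0.31 with P61S, and 0.20 and 0.36 with wild type. P61S replicate 2 was the highest array for Cox4i2, and the difference of P61S/R100E from P61S was -0.20 (SE 0.123). Cox5a had the smallest p of all members for P61S against wild type, with 3.40, 3.54 and 3.39 with P61S, against 3.56 and 3.70 with wild type (-0.19, SE 0.105, adjusted p = 0.999 in limma). The P61S/R100E arrays, at 3.59, 3.40 and 3.58, overlapped with both.

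Muscle isoforms were above background on all arrays. Cox6a2, the heart and skeletal muscle isoform of subunit VIa, had -3.78, -3.84 and -3.47 with P61S/R100E, -3.81, -3.87 and -3.78 with P61S, and -3.85 and -3.93 with wild type. It was the only tested member whose P61S/R100E arrays all lay above both wild type arrays, by 0.19 (SE 0.125), and P61S/R100E replicate 3 was the highest array. Cox8b, the muscle isoform of subunit VIII, had -5.06, -5.91 and -5.43 with P61S/R100E, -5.83, -5.83 and -5.89 with P61S, and -5.74 and -5.57 with wild type. The P61S/R100E arrays held both its highest and its lowest value, so its difference of 0.38 from P61S (SE 0.202), the largest of any member in that comparison, did not pass. The summed signal of the 11 skeletal and cardiac muscle markers, in units of the array's 75th percentile, was 1.20 to 1.44 with P61S/R100E, 1.10 to 1.19 with P61S and 1.12 to 1.19 with wild type. Gene by gene, 8 of these markers were higher and 3 lower with P61S/R100E than with P61S, with a median of 0.05. Against wild type 6 were higher and 5 lower, with a median of 0.00. The part of the muscle markers in the values of Cox6a2 and Cox8b was not tested.

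The other complex IV genes did not pass either. Cox6b2, an isoform known from testis, had 1.88, 1.86 and 1.60 with P61S/R100E, 1.84, 2.02 and 1.91 with P61S, and 1.77 and 2.44 with wild type, where replicate 2 again stood apart. Its difference of P61S/R100E from wild type was -0.32 (SE 0.202, adjusted p = 0.746 in limma). It was named after its values were seen. Cox6b1, the common isoform, had 3.29, 3.27 and 3.29 with P61S, against 3.26 and 3.23 with wild type, a separation of 0.04 (SE 0.127). Its other 2 probes differed in sign, at -0.04 (SE 0.128) and 0.07 (SE 0.141). For Cox5b, Cox6a1, Cox7a2 and Cox8a, the other subunits fixed for description, changes ran from -0.03 to 0.09 over the 3 comparisons with standard errors up to 0.147. None of them passed.

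In ATP synthase, Atp5f1a, the alpha subunit of the catalytic head, had 5.31, 5.11 and 5.38 with P61S/R100E, 5.19, 5.32 and 5.24 with P61S, and 5.22 and 5.22 with wild type. Atp5f1b, the catalytic beta subunit, had the widest range of all 84 members, 1.07. Its signals were 2.11, 1.85 and 1.57 with P61S/R100E, 2.08, 2.01 and 2.10 with P61S, and 1.95 and 2.65 with wild type. P61S/R100E replicate 3 was the lowest array and wild type replicate 2 the highest. The difference of P61S/R100E from wild type was -0.45 (SE 0.23, adjusted p = 0.746 in limma), and that of P61S from wild type -0.23 (SE 0.23).

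The proton-carrying c ring is encoded by Atp5mc1 and Atp5mc2 among the tested genes. Atp5mc1 had 3.99, 3.80 and 3.93 with P61S/R100E, 3.96, 4.05 and 3.85 with P61S, and 3.96 and 3.93 with wild type. Atp5mc2, whose promoter holds the NRF1 core shown above, had 4.66, 4.29 and 4.68 with P61S/R100E, 4.48, 4.56 and 4.48 with P61S, and 4.50 and 4.55 with wild type. Atp5if1, the inhibitor that stops the enzyme from hydrolysing ATP, had 4.44, 4.29 and 4.58 with P61S/R100E, 4.44, 4.39 and 4.45 with P61S, and 4.44 and 4.11 with wild type. In all 3 genes the groups overlapped, and differences lay between -0.05 and 0.16. Atp5po, the stalk subunit that confers oligomycin sensitivity, had 4.52, 4.54 and 4.50 with P61S, against 4.57 and 4.58 with wild type, a separation of -0.05 (SE 0.111). Ndufa10 was the other member with non-overlapping P61S and wild type arrays, at -0.01 (SE 0.0812).

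**Figure D3:**
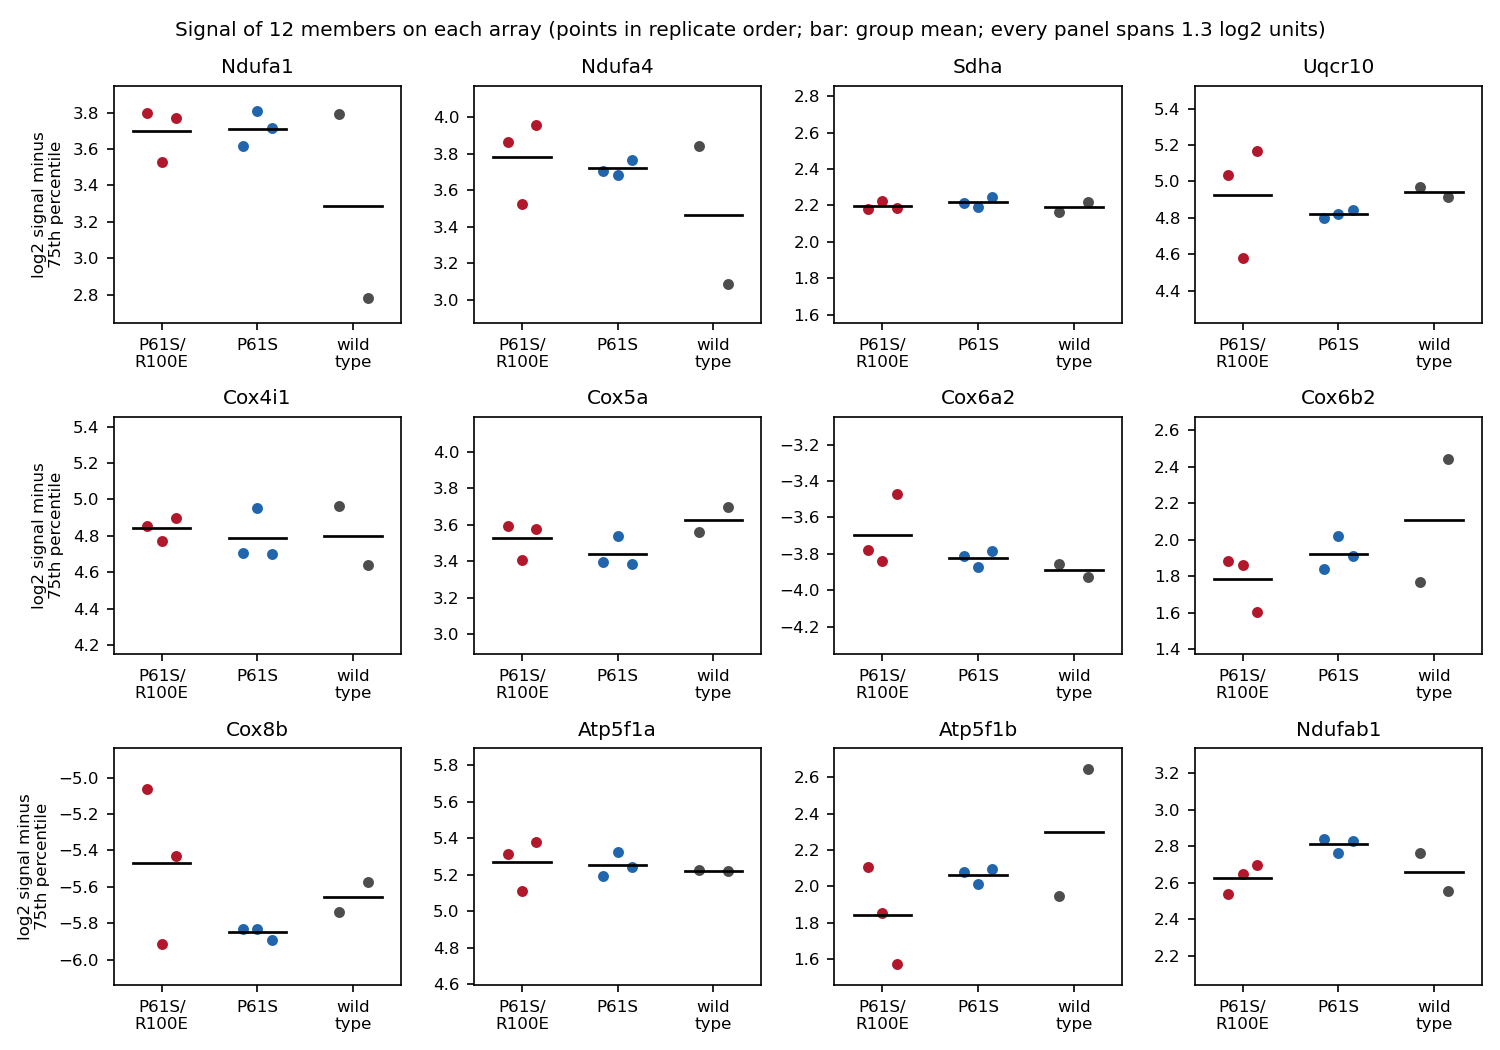
Log2 signal minus the array's 75th percentile (vertical axis, 1.3 log2 units in every panel) of 12 members on each array, with P61S/R100E, P61S and wild type from left to right and bars at group means. Sdha is nearly level over the 8 arrays. Wild type replicate 2 is the lowest array of Ndufa1 and Ndufa4 and the highest of Atp5f1b and Cox6b2. The P61S/R100E arrays hold both the highest and the lowest value of Cox8b.

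By the median over the 84 members, the largest shifts were on P61S/R100E replicates 2 and 3, in opposite directions. Each array was described by the median deviation of the members from their own mean over 8 arrays. It was 0.02, -0.11 and 0.10 in P61S/R100E replicates 1, 2 and 3, 0.01, 0.02 and 0.01 in the P61S replicates, and 0.04 and -0.04 in the wild type replicates. P61S/R100E replicate 2 had 77 of 84 members below their own mean and held the lowest value of 44 members. P61S/R100E replicate 3 had 72 of 84 above and held the highest value of 42. Over all 12148 genes the medians of these arrays were -0.03 and 0.02.

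The contrast of those replicates ran through the large complexes. P61S/R100E replicate 3 exceeded replicate 2 in 75 of 84 members by a median of 0.22, against 6830 of 12148 genes (56.2%) by 0.04. It did so in 32 of 33 complex I subunits (median 0.21), 7 of 8 complex III subunits (0.20), 14 of 15 complex IV subunits (0.27) and 14 of 15 of the complex V group (0.29). In complex II it did so in 2 of 4 (0.07), and in 4 of 6 complex I assembly factors (0.09). The proteins of the mitochondrial ribosome showed it in 49 of 66 genes (0.14). These arrays carry the same protein form, so the contrast is spread within a group. The wild type arrays differed as well. Replicate 1 exceeded replicate 2 there in 60 of 84 members by a median of 0.07, against 4755 of 12148 genes (39.1%) by -0.08. In the P61S group, replicate 2 exceeded replicate 1 in 46 of 84 members, by a median of 0.01. Some lists of cell markers differed between P61S/R100E replicates 2 and 3. Their median deviations in replicates 2 and 3 were -0.13 and 0.27 for 11 muscle markers. They were -0.04 and 0.12 for 8 fibroblast markers and -0.04 and 0.24 for 7 macrophage markers. For 14 neuron markers they were -0.004 and 0.012. Summed signals in replicates 2 and 3, in units of the array's 75th percentile, were 38.98 and 47.42 for 6 satellite glia markers. They were 84.26 and 94.74 for 10 Schwann cell markers, 210.7 and 218.2 for the neuron markers and 0.233 and 0.237 for 4 endothelial markers. For the fibroblast, macrophage and muscle markers they were 155.2 and 178.4, 1.72 and 2.61, and 1.20 and 1.44. In replicate 1 the fibroblast, neuron and endothelial sums lay above both, at 187.8, 225.8 and 0.262. The replicate 1 sums of the other lists lay between those of replicates 2 and 3. The part of these cell types in the contrast was not tested.

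The size of that contrast depended on how the arrays were scaled. With quantile normalization the median deviations of P61S/R100E replicates 2 and 3 were -0.05 and 0.04, and with normexp background correction and quantile normalization -0.05 and 0.03. Replicate 3 then exceeded replicate 2 in 66 of 84 members under either, against 6102 and 6086 of 12148 genes. The medians of this difference were 0.085 and 0.079 for the members. For the mitochondrial ribosome genes they were larger, 0.115 and 0.095, with 49 and 45 of 66 higher in replicate 3. With each array centred by its detected-probe median, P61S/R100E replicates 2 and 3 had median deviations of -0.08 and 0.16. Wild type replicate 2 then reached -0.18. The wild type contrast depended on scaling too. Replicate 1 exceeded replicate 2 in 59 of 84 members under quantile normalization, by a median of 0.087, near the 0.085 of the P61S/R100E pair. With normexp it did so in 49 of 84, by 0.023. The shares of all genes were 51.8% and 48.6%.

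The spread within groups differed accordingly. The median SD of a member was 0.14 over the P61S/R100E arrays, 0.04 over the P61S arrays and 0.10 over the wild type arrays, and over all genes 0.14, 0.08 and 0.15 in the same order. The median range of a member over all 8 arrays was 0.31, against 0.46 for all genes. In 73 of 84 members (86.9%) the range was under 0.5, against 54.0% of all genes. The genes were not matched by signal level, and related mitochondrial lists were not compared by range. The 2 members with a range over 1 were Atp5f1b and Ndufa1.

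**Figure D4:**
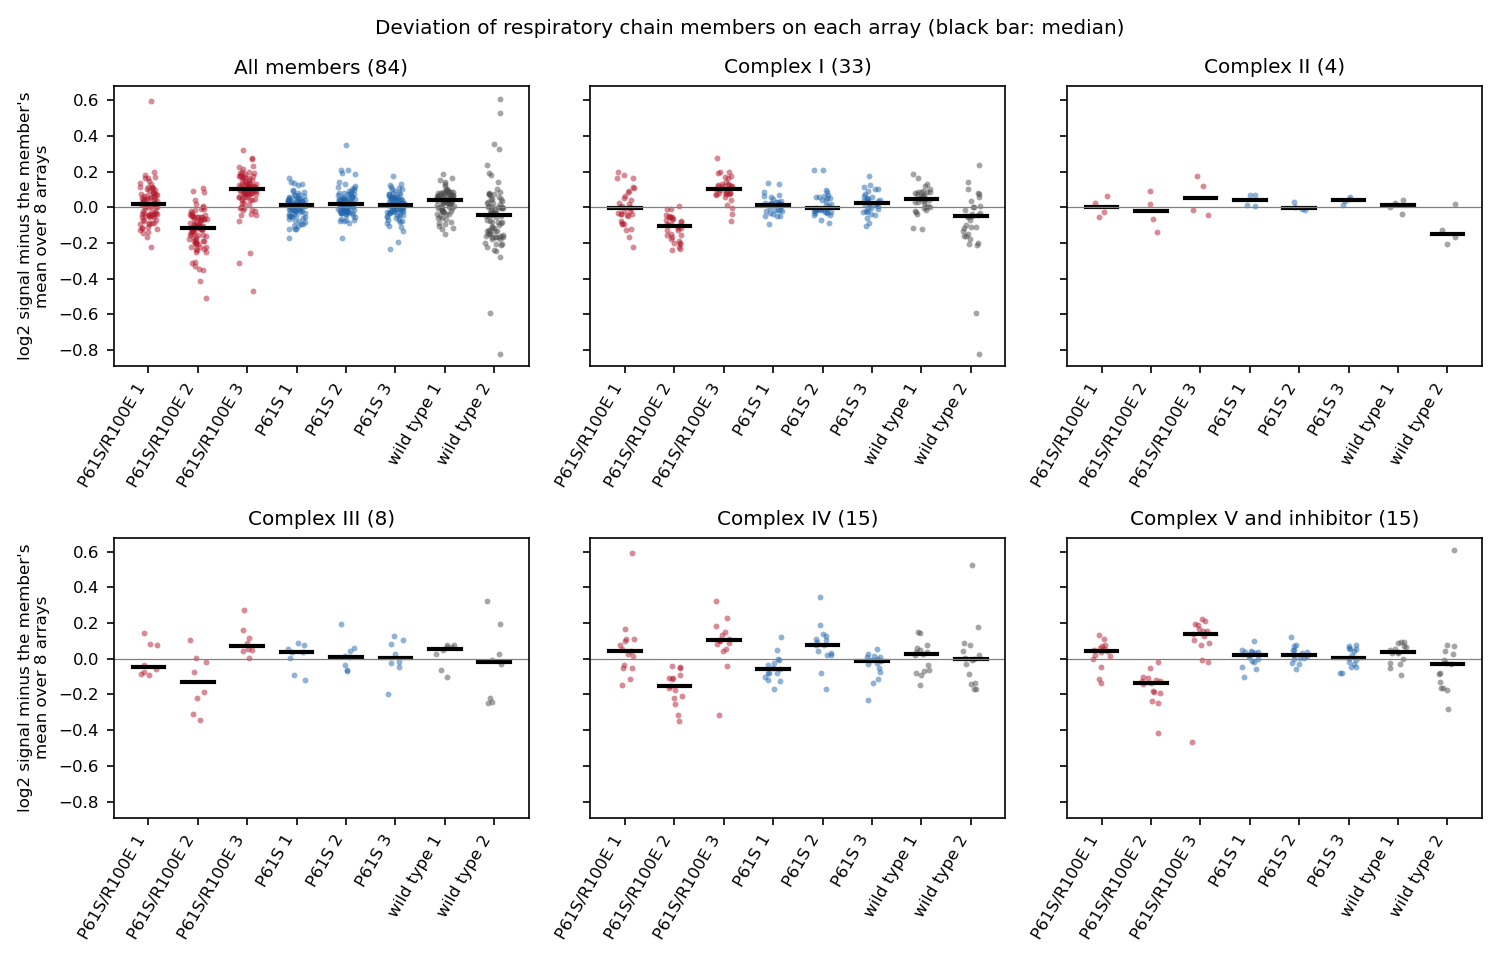
Deviation of each member from its own mean over 8 arrays (vertical axis, log2) on every array (horizontal axis), for all 84 members and for the subunits of each complex. Black bars mark medians, which for all members lie at -0.11 in P61S/R100E replicate 2 and 0.10 in replicate 3.

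**Figure D5:**
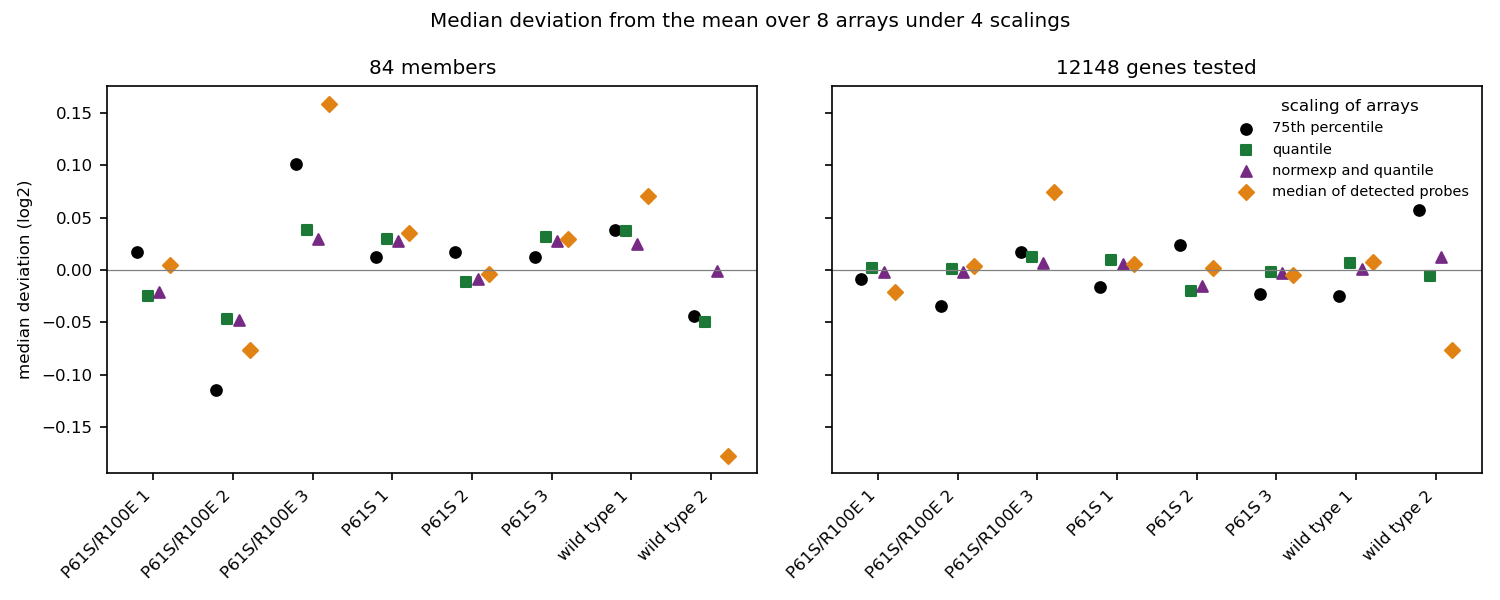
Median deviation (vertical axis, log2) of the 84 members and of all 12148 genes on each array under 4 scalings of the arrays. P61S/R100E replicate 2 lies below 0 for the members under all 4, from -0.11 to -0.05, and wild type replicate 2 ranges from -0.18 to 0.00.

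Genes that work with the chain were described by lists chosen by function. Among 29 tested assembly factors outside the symbol rule, 19 electron carriers and nucleotide exchangers, 19 citric acid cycle and pyruvate genes, 17 regulators of mitochondrial biogenesis, 66 mitochondrial ribosome genes and 8 mitochondrial antioxidant enzymes, 0 passed in any comparison. Their median changes for P61S/R100E against P61S were -0.06, -0.02, -0.02, 0.01, -0.02 and 0.00 in that order. Against wild type, P61S/R100E gave -0.04, 0.01, -0.02, -0.02, 0.02 and -0.05, and for P61S the 6 medians lay between -0.04 and 0.02. Of the 17 regulators, 10 were higher and 7 lower with P61S/R100E than with P61S. The extremes were Ppargc1a at -0.45 and Nrip1, a nuclear receptor corepressor, at 0.44 (SE 0.191), neither past the threshold. Ppargc1a, the coactivator PGC-1alpha that drives mitochondrial biogenesis, averaged -4.69 ± 0.16 (SD, n = 3) with P61S/R100E, against -4.25 ± 0.30 (SD, n = 3) with P61S, a difference of -0.45 (SE 0.207) with an adjusted p of 0.999 in limma. Nrf1, the factor whose core motif is shown above, differed by 0.05 (SE 0.103), and Tfam, which packages and transcribes mitochondrial DNA, by 0.05 (SE 0.0817).

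Different probes of a member did not always give the same sign. Of 17 members with 2 or more tested probes, the sign of the change differed between probes in 8 for P61S/R100E against P61S, in 8 for P61S/R100E against wild type and in 11 for P61S against wild type. The gap between the highest and lowest probe had a median of 0.11, 0.11 and 0.10 in the same comparisons, near the standard error of a single change. Ndufaf4, a complex I assembly factor read from 4 probes, had the widest gap in each, up to 0.53 for P61S against wild type. Ndufv3, a subunit of the NADH-oxidising part, differed by 0.13 on the brightest probe and by -0.16 on another for P61S/R100E against P61S. For Ndufb4, an accessory subunit of the membrane arm, the corresponding values were 0.04 and -0.11.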

How the data were processed

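RNA of dorsal root ganglion cultures was hybridised to 8 one-colour Agilent arrays of 62976 spots on 1 slide. The unit is scanner intensity: per the file headers, Feature Extraction 10.7.3.1 (protocol GE1_107_Sep09) gave background-subtracted, detrended processed signals. Per the labels' protocols, only RNA with an integrity number of at least 8.0 was kept. The deposited log2 matrix (22018 probes) lies within 0.001 of log2 of those signals for 95.1% to 96.4% of probes per array (r from 0.999 to 0.9999), not centred between arrays (medians 9.82 to 10.33), and served as an alternative.

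Here log2 values were taken relative to each array's 75th percentile, and spots of a probe were averaged. A probe was tested (23585 of 30367) where all arrays of some group read it well above background, with 3 group means in limma 3.58.1 (R 4.3.3) and Benjamini-Hochberg adjustment over all tested probes at 0.05. The test of P61S/R100E against P61S was run on simulated data with independent noise in each probe. Those data hold no shift shared by many genes of an array, so such shifts were not covered. The brightest probe stood for a gene, matched by RefSeq accession to the GRCr8 table. The design was built on rn4, so no array coordinates are given. Promoters come from RefSeq (GRCr8). Figures used matplotlib 3.10.9, numpy 2.4.6, pandas 2.3.3 and Python 3.11.15.

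Named are members past the adjusted threshold, up to 5 per direction and comparison with the smallest p among those with groups apart, 24 members fixed by role, 2 assembly factors per comparison and the 3 members with the widest disagreement of probes in sign. Ndufa1, Cox6b2, Atp5po and Ndufa10 were named outside this rule. Members, motifs and lists were chosen with earlier results of these data known. The normexp alternative (offset 50) used median spot signals, the column in the files. Alternatives also changed the filter, scaling, blocks, probes and threshold and left out each array. The 3 same-numbered pairs of P61S/R100E and P61S arrays had deviations correlated at 0.05, -0.02 and 0.01, so the numbers were not taken to pair the samples. A further result on these genes is not reported here.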

Additional observations from a re-analysis of the deposited data

How the results depend on the processing

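In every comparison 0 members were called under all settings except 1, which left out wild type replicate 1, so that the counts with single arrays left out ran from 0 to 1 for P61S/R100E against wild type. Counts over all genes, 0 in the main analysis, depended more on the setting. For P61S/R100E against P61S they were 5 with a variance trend and robust hyperparameters, 1 each with the deposited values, a filter on all arrays and an adjusted p under 0.10, and 0 to 2 with single arrays left out. For P61S/R100E against wild type the same settings gave 1 each, and leaving out arrays gave 0 to 557 (557 without wild type replicate 1, 1 without wild type replicate 2, 2 without P61S replicate 2). For P61S against wild type leaving out arrays gave 0 to 91 (91 without wild type replicate 1, 1 without wild type replicate 2). Where 1 wild type array was left, it was assumed to vary like the other groups.

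The median change of the members moved most with the slide column as a covariate. It was then 0.29 for P61S against wild type, -0.15 for P61S/R100E against P61S and 0.14 for P61S/R100E against wild type. Centring on the median of detected probes gave 0.082, 0.002 and 0.079 in the same order. The cause was not tested. With single arrays left out it ran from -0.06 to 0.03 for P61S/R100E against P61S, from -0.052 to 0.077 for P61S/R100E against wild type (0.077 without P61S/R100E replicate 2) and from -0.01 to 0.06 for P61S against wild type. With P61S/R100E replicate 1 as the only array of its group, an alternative added after the data were seen, it was -0.002 against P61S and 0.02 against wild type. With the replicate number as a block the medians were -0.020, -0.022 and -0.002 in the order of the report, and 0 genes and 0 members were called. Between the 2 arrays of slide column 2, an alternative added after the data were seen, the median for P61S/R100E against P61S was -0.15. By the layout this is the same estimate as with the column covariate, not a separate result. Within slide row 1 alone the 3 medians were -0.009, -0.005 and -0.015, and within row 2 -0.022, 0.016 and 0.063. Not every array correlated best with its own number.

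The naming rule leaves out Ndufa1, Cox6b2, Atp5po and Ndufa10, so their values were not followed here. The members named by the rule gave 1932 values under 23 settings. Of these, 1758 moved by less than the pooled replicate SD, 174 moved by more and 0 passed the threshold. Under the slide column 54 of the 84 values moved. Signs differed in 242 of the 1932 values, all of values that had not passed.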

Other observations

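Genes of glycolysis and glucose uptake, the cytosolic route to ATP, stood apart on an array where the respiratory chain did not. On P61S replicate 2 all 22 tested genes lay above their own mean over 8 arrays, by a median of 0.21, and under quantile normalization 21 of 22 did, by 0.17. On the other 7 arrays the median deviation lay between -0.08 and 0.02. Over all 12148 genes, P61S replicate 2 exceeded P61S replicate 1 in 59.5% and P61S replicate 3 in 60.2%. Under quantile normalization these shares were 41.7% and 44.4%. The 84 respiratory chain members had a median of 0.02 on that array, while the 15 complex IV subunits had 0.08, with 13 of 15 above their own mean. On the same array 13 of 14 neuron markers (median 0.07) and 4 of 4 tested endothelial markers (median 0.54) were above their own mean; 2 of those 4 were above background on all arrays, and the list's summed signal was at most 0.32 of the array's 75th percentile. The part of these cell types in the values was not tested.

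For P61S/R100E against P61S, 3 glycolysis genes were higher and 19 lower, with a median log2 change of -0.06. In limma 0 of 22 passed the threshold. Over all genes 5645 were higher and 6503 lower, with a median of -0.01. P61S replicate 2 belongs to the P61S side of that comparison, and its part in these changes was not tested.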
